A study of Mus musculus with 18 samples.

Results

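The 10 genes described here are a set of antioxidant enzymes and targets of the transcription factor NRF2: Nqo1, Hmox1, Gclc, Gclm, Txnrd1, Srxn1, Gpx1, Gpx2, Prdx1 and Cat. They were chosen by symbol, and all 10 were listed at each of the 3 time points, among 17759 genes listed at day 0, 17423 at day 1 and 17612 at day 3. RNA had been sequenced in bulk from duodenal crypts (day 0) and from enteroids, which are 3D cultures grown from those crypts, after 24 h (day 1) and 72 h (day 3). The crypts came from 3 WT (Mtgr1+/+) and 3 Mtgr1-/- mice, young adult age-matched littermates of both sexes with the deletion in every tissue, and each mouse gave 1 library per time point, 18 in all. Both genotypes were plated in the same enteroid medium, with N2, B27, R-spondin, Noggin and EGF, and no other agent is named for these libraries. MTGR1, encoded by Cbfa2t2, is a transcriptional corepressor of the MTG family.

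NRF2, encoded by Nfe2l2, is held at a low level by KEAP1, an adaptor that presents it to the CUL3 and RBX1 ubiquitin ligase. Oxidants and electrophiles modify KEAP1, and NRF2 then pairs with a small MAF protein on antioxidant response elements, which BACH1 can occupy as a repressor. In the intestine these target genes supply glutathione, reduce thioredoxin and peroxides and detoxify quinones and heme, in an epithelium that meets food-borne electrophiles and renews itself from crypt stem cells.

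Values are the deposited normalized counts, in which the count of a gene is divided by 1 factor per library within the table of its time point. In the 16 libraries whose reads could be recovered, 22035316 to 28621990 reads lay on genes. The targeted gene was not lower under its label. Cbfa2t2 stood at 523 to 614 in WT and 466 to 697 in crypt libraries labelled Mtgr1-/-, at 710.2 to 788 against 789 to 1160.3 at day 1, and at 774 to 883 against 766 to 976 at day 3, so that every direction below is that of the labels. Olfm4, a marker of intestinal stem cells, did separate the labelled groups, at 25673 to 33032 in WT crypts against 133 to 512, and at 17576.5 to 43254 against 6.997 to 10.4 at day 1. Summed markers of epithelium were at 151262 or more in all 18 libraries. WT crypt library 3 stood apart: 13 listed markers of blood, immune, stromal and endothelial cells summed to 6932 in it, against 622 and 648 in the other WT crypts and 302 to 1027 in crypts labelled Mtgr1-/-. The labelled Mtgr1-/- library 3 had the highest sums in culture too, 634 at day 1 and 897 at day 3, where the other libraries were between 34.1 and 279. Same-numbered libraries of a genotype came from the same mouse, while p-values measure the spread between 3 mice per genotype.

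The antioxidant response element has the core TGACNNNGC. Promoter windows of 300 bases, 250 before and 50 after each RefSeq start site on GRCm38.p6, were listed for 8 of the 10 genes and not for Hmox1 and Gclc. The core was searched on both strands and was found in windows of 4 of these 8 genes, against 14% of all 27025 genes listed. By window it was in 4 of their 10, among them 1 of 3 start sites of Txnrd1, against 12.4% of all 32851 windows. These 4 stretches are shown because the genes share both this core and a higher level in the labelled Mtgr1-/- enteroids. The genes with windows but without the core were Nqo1, Gpx1, Cat and Gpx2, and all of them but Gpx2 were also higher at day 3. Each is 29 bases long and is read 5′ to 3′ on the strand of its gene, the plus strand in all 4, with the core in capitals. As the core lay on the opposite strand, it reads as the reverse complement.

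Gclm: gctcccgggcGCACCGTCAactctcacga
Prdx1: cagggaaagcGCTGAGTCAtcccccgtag
Txnrd1: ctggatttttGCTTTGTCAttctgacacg
Srxn1: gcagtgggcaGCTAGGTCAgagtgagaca

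The Gclm stretch (chr3:122245413-122245441) and the Prdx1 stretch (chr4:116685456-116685484) lay upstream of the genes, with the core starting at -134 and -133 from the start site. The Txnrd1 stretch (chr10:82859104-82859132) lay in an intron, at -92 from a start site inside the gene, and the Srxn1 stretch (chr2:152105542-152105570) lay in an exon, at position 29 of the transcribed part. The Prdx1 core also contains TGACTCA, the motif bound by AP-1, and those of the other 3 genes do not. A match is a description of the letters and shows no binding.

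The set went from few differences between the genotypes in crypts to many in enteroids. In crypts 1 gene, Gpx1, was higher under the Mtgr1-/- label and 0 were lower. By day 1, 7 were higher (Cat, Srxn1, Gpx1, Gclc, Prdx1, Gclm and Txnrd1) and 1, Gpx2, was lower. By day 3, 9 were higher, with Gpx2 as the exception. Calls are adjusted p-values under 0.05 from limma on log2(normalized count + 1), with Benjamini-Hochberg adjustment over all genes tested at that time point, and fold changes on that scale understate changes of low values.

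These counts stand against a broad background. Of all genes tested, 1.58% were called higher and 3.15% lower at day 0, 30.0% and 28.9% at day 1, and 29.9% and 29.1% at day 3. The median log2 fold change of the 10 genes was 0.28 at day 0, 0.73 at day 1 and 1.09 at day 3, where that of all tested genes was 0.01, -0.01 and 0.00. The groups did not overlap, with every labelled Mtgr1-/- library above every WT library, for 3 of the 10 genes at day 0 (12.0% of all genes), 7 at day 1 (34.2%) and 9 at day 3 (34.6%). Every labelled library was below every WT library for 0 of the 10 at day 0 (13.5% of all), 1 at day 1 (33.9%) and 0 at day 3 (34.2%). At an unadjusted p under 0.05, limma also counted 0 lower genes of the set at day 0 and at day 3, and so did edgeR and DESeq2 on recovered reads after adjustment. Without WT crypt library 3, the crypt counts were 0 higher and 1 lower (Nqo1), while without the labelled Mtgr1-/- library 3 the enteroid counts were 7 higher at day 1 and 9 at day 3.

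**Figure D1:**
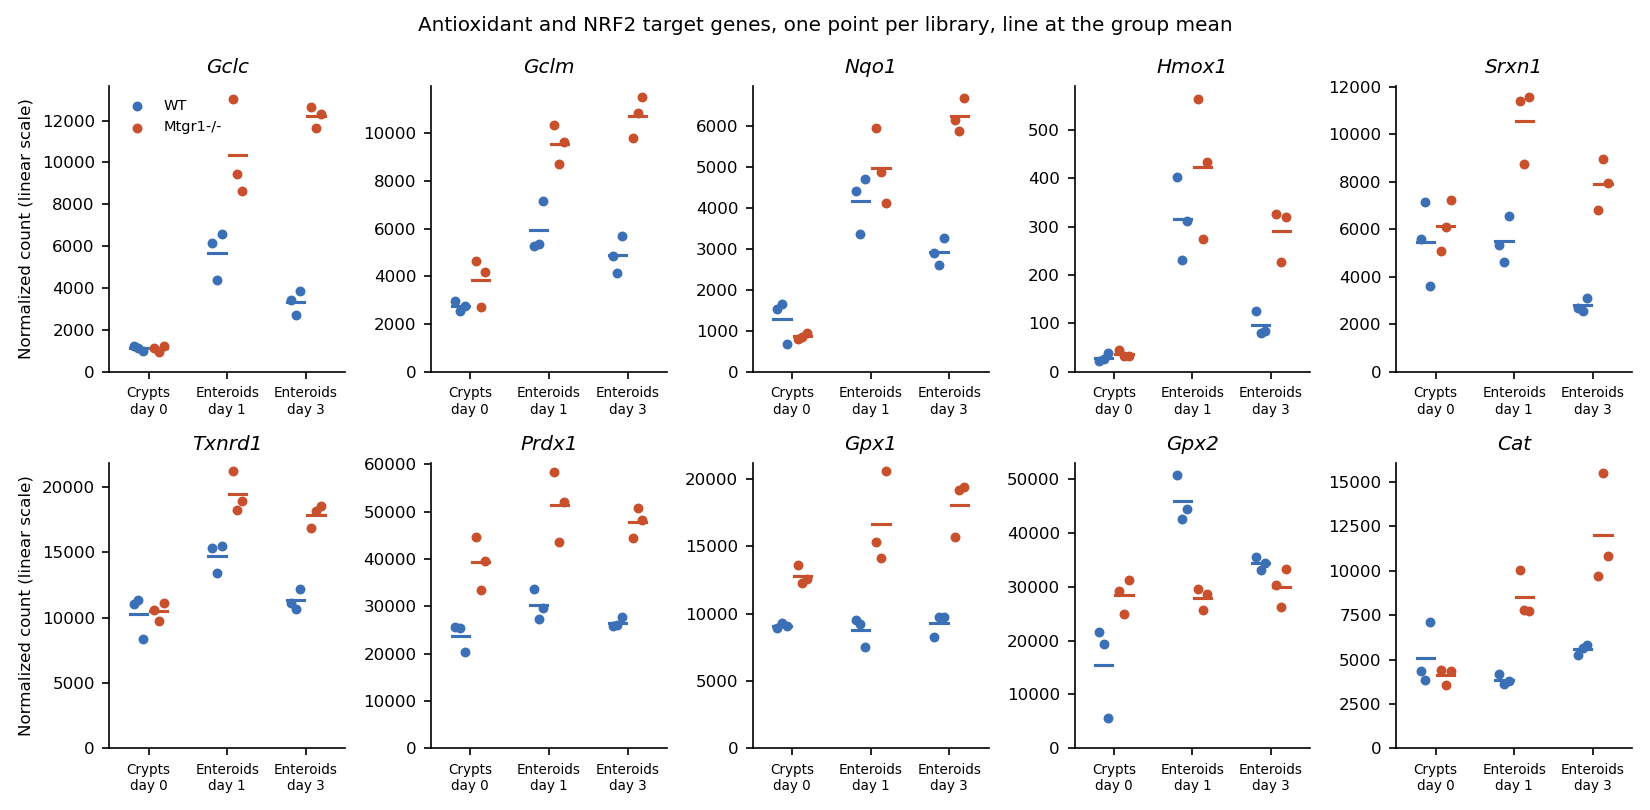
Normalized counts (linear scale, vertical axis) of the 10 genes at the 3 time points, with 1 point per library, WT in blue, Mtgr1-/- in red, and a line at each group mean of 3 libraries. At day 3 the groups separate without overlap for 9 genes, while Gpx2 overlaps, and Gpx2 of WT crypts has 1 low library at 5683.

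Gclc and Gclm encode the 2 subunits of glutamate-cysteine ligase, the rate-limiting enzyme of glutathione synthesis. Gclc, the catalytic subunit (ENSMUSG00000032350.9, chromosome 9, 77754535 to 77794485, GRCm38), stood in crypts at 1255, 1156 and 1007 in WT and at 1156, 945 and 1245 in the libraries labelled Mtgr1-/-. The crypt groups overlapped (log2 fold change -0.03 ± 0.14 SE, adjusted p = 0.926, limma). At day 1 Gclc was at 6130.2, 4373 and 6566 in WT and 13047, 9432 and 8637 under the Mtgr1-/- label, 1.82-fold higher (log2 0.86 ± 0.20, adjusted p = 0.00686, limma). At day 3 it was at 3433, 2717 and 3846 against 12643, 11640.0 and 12324, 3.70-fold higher (log2 1.89 ± 0.13, adjusted p = 2.12e-05, limma). The lowest labelled library at day 3 was thus far above the highest WT library, and Gclc had the largest day 3 fold change of the 10 genes.

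Gclm, the modifier subunit that raises the efficiency of the enzyme (ENSMUSG00000028124.15, chromosome 3, 122245557 to 122270732), differed less. In WT crypts it was at 2981, 2554 and 2757, which overlapped 4656, 2733 and 4193 in the other genotype (log2 0.45 ± 0.20, adjusted p = 0.291, limma). Day 1 values were 5258, 5374 and 7171 in WT against 10344, 8694 and 9646, 1.62-fold higher (adjusted p = 0.0035, limma). Day 3 values were 4849.8, 4131 and 5696 against 9792, 10839 and 11526, 2.20-fold higher (log2 1.14 ± 0.13, adjusted p = 0.000207, limma). Neither enteroid comparison had an overlap.

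Nqo1, which reduces quinones without forming radicals and is a standard readout of NRF2 activity, is ENSMUSG00000003849.8 on chromosome 8 (107388225 to 107403206). In crypts it was at 1538, 1652 and 687 in WT and at 801, 855 and 944 under the Mtgr1-/- label (log2 -0.48 ± 0.32, adjusted p = 0.486, limma). WT crypt library 3 was the low one, and without it Nqo1 was lower (log2 -0.88, adjusted p = 0.0126, limma). At day 1 the groups overlapped at 4429, 3360.5 and 4709 against 5969.6, 4871 and 4127 (log2 0.26 ± 0.17, adjusted p = 0.219, limma), and the log2 value turned to -0.03 with quantile normalization and to -0.06 with per-million scaling, which gives every library the same total. At day 3 Nqo1 was at 2898, 2614 and 3258 against 6142, 5894 and 6684, 2.14-fold higher with no overlap (log2 1.10 ± 0.10, adjusted p = 8.13e-05, limma).

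Hmox1, the inducible heme oxygenase that opens heme to biliverdin, iron and carbon monoxide (ENSMUSG00000005413.8, chromosome 8, 75093621 to 75100589), was close to the low end of the tested genes in crypts. In WT crypts it was listed at 22.04, 26.7 and 38.0, and in labelled Mtgr1-/- crypts at 44.3, 32.3 and 33.5 (log2 0.36 ± 0.33, adjusted p = 0.626, limma). At day 1 both genotypes were far above their crypts, at 403, 230.1 and 311 against 563, 275 and 433, and overlapped (log2 0.40 ± 0.29, adjusted p = 0.262, limma). Mouse numbers deviated together at day 1, and their correlations were positive at day 0 as well. Blocking on that number at day 1 gave Hmox1 an adjusted p of 0.0205 (limma), the only call among the 10 genes that the block changed there. At day 3 Hmox1 was at 125, 80.2 and 85.2 in WT and still at 327, 227 and 320.0 under the Mtgr1-/- label, 3.01-fold higher with no overlap (log2 1.59 ± 0.22, adjusted p = 0.00061, limma).

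In the thioredoxin branch, Txnrd1, the cytosolic thioredoxin reductase, a selenoprotein (ENSMUSG00000020250.10, chromosome 10, 82833951 to 82897712), was at 8338 to 11377 in WT crypts and 9751 to 11134 in the others (log2 0.04 ± 0.14, adjusted p = 0.913, limma). At day 1 it was at 15288, 13434 and 15507 against 21211, 18232 and 18908 (log2 0.40 ± 0.11, adjusted p = 0.014, limma). This call was lost without WT library 2 (adjusted p = 0.0565) or without the labelled Mtgr1-/- library 1 (0.0555), with per-million scaling (log2 0.079, 0.450) and with quantile normalization (log2 -0.02, 0.851). At day 3 it was at 11142, 10653 and 12218 against 16862, 18109 and 18534, 1.57-fold higher (log2 0.65 ± 0.09, adjusted p = 0.000608, limma).

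Srxn1, sulfiredoxin, which repairs over-oxidized peroxiredoxins (ENSMUSG00000032802.8, chromosome 2, 152105516 to 152111376), was at 3609 to 7153 in WT crypts and 5109 to 7222 in the others (log2 0.21 ± 0.26, adjusted p = 0.713, limma). At day 1 it was at 5356, 4619 and 6556 against 11391, 8765 and 11588, 1.92-fold higher (adjusted p = 0.0018, limma). At day 3 it was at 2694, 2572 and 3126 against 6800.5, 8967 and 7937, 2.82-fold higher (log2 1.49 ± 0.12, adjusted p = 4.68e-05, limma). WT values at day 3 were the lowest of any group for this gene, and the groups did not overlap in enteroids.

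Prdx1, peroxiredoxin 1, which removes hydrogen peroxide with electrons from thioredoxin (ENSMUSG00000028691.12, chromosome 4, 116685544 to 116700822), was separate already in crypts. WT crypts were at 25559, 25433 and 20362 and labelled crypts at 44655, 33539.5 and 39666, and did not overlap (log2 0.72 ± 0.17, adjusted p = 0.0616, limma). That p-value passed 0.05 in 4 of 17 alternatives and ranged from 0.00134 to 0.182 over them. Day 1 values were 33718, 27311 and 29644 against 58489.8, 43524 and 51945, 1.69-fold higher (adjusted p = 0.00391, limma), a call lost with quantile normalization (log2 0.14, adjusted p = 0.191). Day 3 values were 25795, 26108 and 27702 against 44365, 50715 and 48177, 1.80-fold higher (log2 0.85 ± 0.10, adjusted p = 0.000339, limma).

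The enzymes that remove peroxides by other routes differed from each other. Gpx1, the widespread glutathione peroxidase and a selenoprotein (ENSMUSG00000063856.7, chromosome 9, 108338903 to 108340343), was the gene called higher in crypts, at 8948, 9332 and 9062 in WT against 13596, 12316 and 12588 (1.41-fold, log2 0.49 ± 0.09, adjusted p = 0.0296, limma). The call was lost when any library but the labelled Mtgr1-/- library 2 was left out (adjusted p 0.0537 to 0.166), with edgeR (0.134) and with mouse numbers as a block (0.0749), while the log2 value kept between 0.44 and 0.55 over all 17 alternatives. At day 1 Gpx1 was at 9553, 9201 and 7550.4 against 15337, 14166 and 20586, 1.89-fold higher (adjusted p = 0.00213, limma). At day 3 it was at 8293, 9792 and 9769 against 15699, 19211 and 19392, 1.95-fold higher (adjusted p = 0.000318, limma). WT libraries thus lay between 7550.4 and 9792 at all 3 time points, and no labelled Mtgr1-/- library was below 12316.

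Gpx2, the glutathione peroxidase of the gastrointestinal epithelium, also a selenoprotein (ENSMUSG00000042808.8, chromosome 12, 76792333 to 76795554), went the other way. In crypts it was at 21572, 19364 and 5683 in WT and at 29269, 24919.9 and 31169 under the Mtgr1-/- label, with no overlap but a wide WT spread (log2 1.09 ± 0.48, adjusted p = 0.296, limma). Without WT crypt library 3 the log2 value was 0.47. At day 1 Gpx2 was at 50794, 42482 and 44493 in WT against 29559, 25636 and 28726, 0.61 of WT with no overlap (log2 -0.71 ± 0.13, adjusted p = 0.00219, limma). At day 3 the groups overlapped at 35566, 33068 and 34375 against 30282, 26224 and 33191 (log2 -0.21 ± 0.12, adjusted p = 0.158, limma), while quantile normalization gave -0.57 (adjusted p = 0.00944) and per-million scaling -0.41 (adjusted p = 0.0261). The labelled libraries stayed between 24919.9 and 31169 in crypts and between 25636 and 33191 in culture, while WT libraries ranged from 5683 in crypts to 50794 at day 1.

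Cat, catalase, the peroxisomal enzyme that splits hydrogen peroxide (ENSMUSG00000027187.10, chromosome 2, 103453849 to 103485160), was at 4333, 3854 and 7146 in WT crypts and 4439.8, 3578 and 4342 in the others (log2 -0.26 ± 0.23, adjusted p = 0.602, limma). WT crypt library 3 was the high one here, and without it the log2 value was 0.01. At day 1 Cat was at 4205, 3610.4 and 3788 against 10028, 7802 and 7746, 2.19-fold higher (log2 1.13 ± 0.12, adjusted p = 0.000335, limma). At day 3 it was at 5232, 5626 and 5849 against 9736, 15509 and 10817, 2.12-fold higher (adjusted p = 0.000891, limma), with the labelled library 2 well above the other 2.

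**Figure D2:**
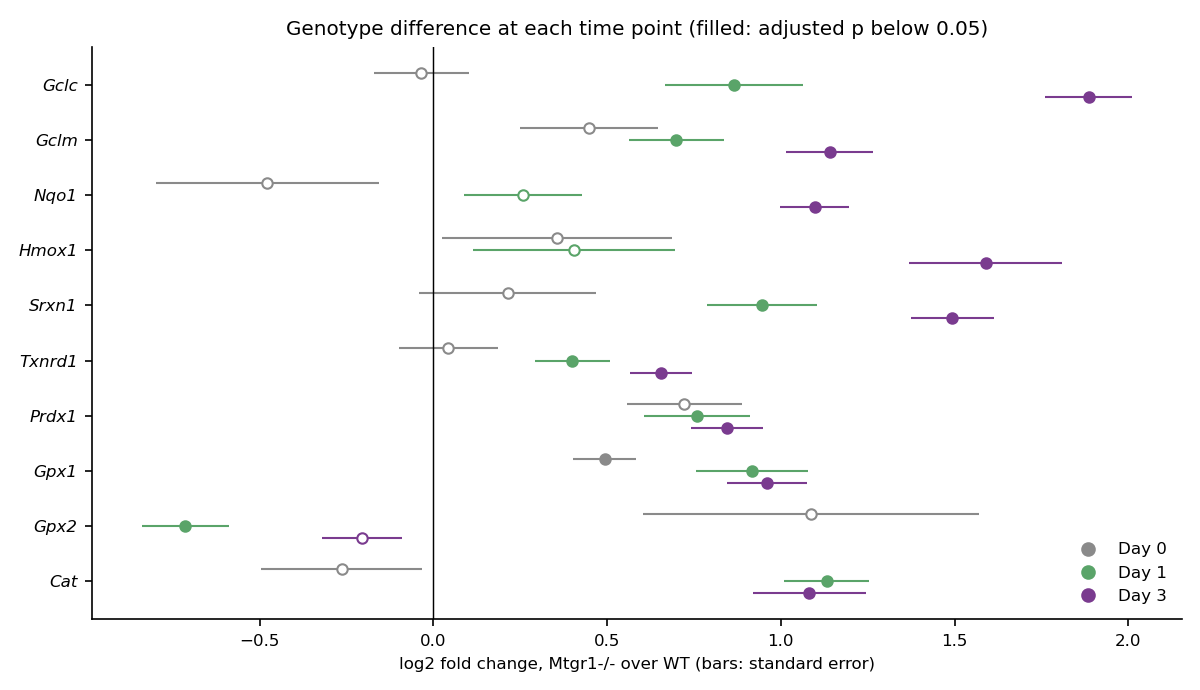
Log2 fold change of Mtgr1-/- over WT (horizontal axis, with standard errors as bars) for the 10 genes at day 0 (grey), day 1 (green) and day 3 (purple), filled where the adjusted p was under 0.05 in limma with 3 libraries per genotype. Gclc moves from -0.03 through 0.86 to 1.89, Prdx1 stays between 0.72 and 0.85, and Gpx2 goes from 1.09 at day 0 to -0.71 at day 1.

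Whether the genotype difference itself changed between time points was tested with limma on all 18 libraries, over 12145 genes tested in all 3 tables. A factor common to a table cancels in this comparison. From day 0 to day 3 the difference became more positive for 7 of the 10 genes (16.5% of all genes tested) and more negative for 1 (15.1%). Gclc changed most, by 1.92 ± 0.25 (SE) on the log2 scale (adjusted p = 0.000281, limma), followed by Nqo1 at 1.58, Cat at 1.35, Srxn1 at 1.28, Hmox1 at 1.23, Gclm at 0.69 and Txnrd1 at 0.61. Gpx2 changed by -1.29 ± 0.47 (adjusted p = 0.0476, limma), or by -0.68 (0.0128) without WT crypt library 3. Gpx1 (0.47, adjusted p = 0.0683) and Prdx1 (0.12, 0.662) were not called. With the mouse as a block, by differences within each of the 6 mice, the estimates were the same, but of these 8 genes only Gclc remained called (adjusted p = 0.0151, limma), and the other 7 lay between 0.0652 and 0.134.

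From day 0 to day 1 the difference became more positive for Cat (1.396 ± 0.28, adjusted p = 0.00253, limma) and Gclc (0.90 ± 0.25, 0.0107), 2 of the 10 genes against 20.3% of all, and more negative for Gpx2 (-1.80 ± 0.47, 0.00807), 1 against 21.1%. These 3 calls held within mice as well. Without WT crypt library 3, 5 genes became more positive, and Gpx2 changed by -1.19. From day 1 to day 3, 0 of the 10 genes were called in either direction by limma, 3 had an unadjusted p under 0.05, and of all genes 0.0247% became more positive and 0.00823% more negative. The largest of these 3 estimates were those of Hmox1 (1.18 ± 0.41, adjusted p = 0.461) and Gclc (1.02 ± 0.25, adjusted p = 0.159), and the third was that of Nqo1 (0.84 ± 0.35, adjusted p = 0.613).

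The levels over time are given for each genotype, but the 3 tables were normalized separately and levels across them were not tested. The median ratio of the 12145 genes was close to 1, at log2 values of 0.13 from day 0 to day 1 and 0.07 from day 1 to day 3 in WT, and 0.10 and 0.09 in the other genotype. In WT, mean Hmox1 at day 1 was 10.9 times its crypt level, and day 3 was 0.307 of day 1. Under the Mtgr1-/- label the first ratio was alike, 11.5, but day 3 was 0.687 of day 1. For Gclc the WT ratios were 4.99 and 0.586, and those of the other genotype were 9.30 and 1.18. Nqo1 had ratios of 3.22 and 0.702 in WT and 5.76 and 1.25 in the other genotype. In all 3 WT mice Nqo1, Hmox1, Gclc, Gclm, Txnrd1, Srxn1, Gpx2 and Prdx1 were lower at day 3 than at day 1, while for Nqo1 all 3 labelled mice were higher at day 3. Mean Gpx2 in WT was 2.96 times its crypt level at day 1, with log2 changes of 1.24 and 1.13 in mice 1 and 2 and of 2.97 in mouse 3, whose crypt library was low, while the changes of the labelled mice lay between -0.12 and 0.04.

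The regulators of NRF2 were read next. Nfe2l2 did not differ in crypts, where it was at 8947, 9719 and 8239.7 in WT against 8474, 7959 and 8363 (log2 -0.12 ± 0.10, adjusted p = 0.583, limma). At day 1 it was at 8479, 8392 and 7174 against 10478, 12644 and 9639.6, 1.36-fold higher (adjusted p = 0.0174, limma), and at day 3 at 8071, 8024 and 8699.7 against 12497, 15927 and 13035, 1.66-fold higher (adjusted p = 0.000804, limma). In the deposited scaling no enteroid library labelled Mtgr1-/- overlapped WT. With per-million scaling the Nfe2l2 groups overlap at day 1 but not at day 3. The change of the difference from day 0 to day 3 was 0.85 ± 0.16 (adjusted p = 0.00237, limma). Keap1, its inhibitor, gave log2 values of -0.08, 0.12 and 0.11 at the 3 time points (adjusted p = 0.718, 0.262 and 0.306, limma), and its groups overlapped each time. Bach1, the repressor at the same elements, was at 2404, 2089 and 2352 against 2541, 2793 and 2883 at day 3 (log2 0.26 ± 0.09, adjusted p = 0.0308, limma) and was not called at day 1 (0.09, 0.506). Its day 3 groups overlap with per-million scaling.

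Of the 10 regulators listed, day 1 had 5 higher and 1 lower, against 30.0% and 28.9% of all tested genes. Day 3 had 6 higher and 1 lower, against 29.9% and 29.1%. Mafk, a small MAF partner, was 1.74-fold higher at day 1 and 1.67-fold at day 3, and Maff 1.57-fold and 1.88-fold. Sqstm1, the p62 receptor that draws KEAP1 into autophagy and is itself a NRF2 target, was 1.55-fold higher at day 1 and 2.12-fold at day 3 (adjusted p = 9.04e-05, limma). Rbx1, the RING subunit of the ligase, was the gene lower at both, by log2 -0.23 and -0.25.

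**Figure D3:**
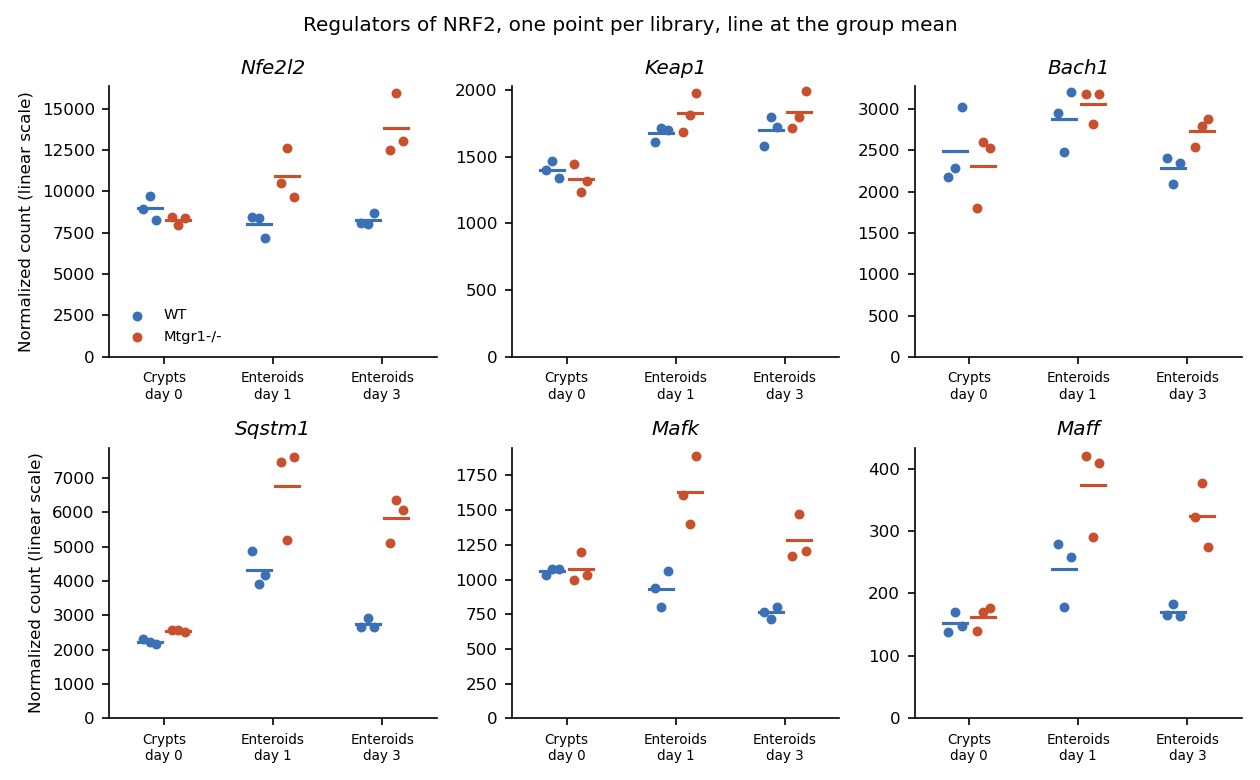
Normalized counts (linear scale, vertical axis) of 6 regulators of NRF2 at the 3 time points, with 1 point per library, WT in blue, Mtgr1-/- in red, and a line at each group mean of 3 libraries. In the deposited scaling Nfe2l2, Sqstm1, Mafk and Maff separate in enteroids, where the lowest labelled value of Nfe2l2 is 9639.6 and the highest WT value 8699.7, while Keap1 overlaps at each time point.

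Other genes of the pathway were taken as 10 lists of 103 genes, of which 99 were tested. At day 0, 2 were higher (Gstm5 and Ptgr1) and 2 lower (Gpx3 and Fth1), against 1.58% and 3.15% of all tested genes. At day 1 this grew to 56 higher and 14 lower genes and at day 3 to 67 higher and 10 lower, with median log2 values of 0.09, 0.47 and 0.58 at the 3 time points. The shares of all tested genes, for these and for each list below, were 30.0% higher and 28.9% lower at day 1. They were 29.9% and 29.1% at day 3. Per-million scaling moved the split of the wider-list genes to 40 and 22 at day 1 and to 53 and 15 at day 3. That scaling took the median log2 fold change of all tested genes to -0.33 at day 1 and to -0.20 at day 3. It left 28.2% of all calls as higher at day 1 in place of 50.9%, and 35.1% in place of 50.7% at day 3.

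Glutathione S-transferases, which join glutathione to electrophiles, had 12 of 15 higher at day 1, 13 of 15 at day 3 and 0 lower at both, with medians of 1.06 and 1.07. Gsta2 had a log2 fold change of 1.53 at day 1 and 2.26 at day 3, Gstm3 of 0.99 and 1.99, and Gsto1 of 1.49 and 1.37. Gsta and Gstm genes have close copies among which reads can be split, so single members of these families are uncertain. Among further NRF2 targets, day 1 had 11 of 14 higher and 1 lower, and day 3 had 12 higher. Ptgr1, a reductase of lipid aldehydes and prostaglandins, stood at 1.95 and 1.37, Abcc2, an export pump for conjugates, at 1.60 and 1.82, and Osgin1 at 1.52 and 1.96, whereas Abcc1 was lower at day 1 (-0.55). Aldh3a1, an aldehyde dehydrogenase, was at 0, 0 and 3.87 in WT and 119, 54.7 and 47.2 in the other genotype at day 3 (adjusted p = 0.000471, limma), values so low in WT that its fold depends on the pseudocount.

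Glutathione supply and recycling was mixed, with 5 of 13 higher and 2 lower at day 1, against 30.0% and 28.9% of all tested genes. By day 3, 8 were higher and 2 lower, against 29.9% and 29.1%. Slc7a11, the cystine importer, was at 559, 376 and 468 against 1167, 917 and 1078 at day 3 (log2 1.18 ± 0.16, adjusted p = 0.000521, limma) and overlapped at day 1 (0.38, 0.174). Ggt1, the brush-border enzyme that takes glutathione apart outside the cell, was higher by 2.32 and 1.88, and Gpx4, which reduces lipid peroxides, by 1.18 and 1.03. Gpx3, a secreted glutathione peroxidase, was lower by log2 -2.88 and -2.51, from 59.0 to 75.3 in WT at day 3 to 5.97 to 20.2, and Glrx3 was lower by -0.37 and -0.30.

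All 6 genes of NADPH supply, which feeds both glutathione and thioredoxin reduction, were higher at day 3 and 5 of 6 at day 1. Me1, malic enzyme, was at 4104, 3311 and 3898 in WT and 16687, 16486 and 16227 in the other genotype at day 3 (4.38-fold, adjusted p = 6.17e-06, limma), and Idh1 was higher by log2 1.73 and 1.28. Against 30.0% and 28.9% of all tested genes, 4 of 7 heme and iron genes were higher and 1 lower at day 1. By day 3, 5 were higher, against 29.9% of all. They were led by Slc40a1, ferroportin, which exports iron (2.57 and 3.13), and Fth1, the ferritin heavy chain (0.83 and 1.23), while Slc48a1, a heme transporter, was lower at day 1 (-0.46).

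The thioredoxin and peroxiredoxin list had 6 higher and 4 lower of 16 at day 1 and 7 higher and 3 lower by day 3, shares not far from those of all tested genes (30.0% and 28.9% at day 1, 29.9% and 29.1% at day 3). Prdx5 (log2 1.52 and 1.18), Sesn1 (0.95 and 0.58) and at day 3 Msrb2 (1.69) were higher. Prdx4 (-0.77 and -0.68), Txnrd3 (-0.83 and -0.45) and Sesn3 (-0.56 and -1.50) were lower, so that family members of Prdx1 and Txnrd1 went against them. Of 2 superoxide dismutases tested in enteroids, Sod1 was higher (0.64 and 0.27).

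The 8 genes listed under selenoprotein synthesis hold factors of that synthesis, which Gpx1, Gpx2 and Txnrd1 depend on, and the selenoproteins Selenop, Selenow and Selenok. Day 1 had 5 higher and 2 lower, against 30.0% and 28.9% of all genes. Day 3 had 4 higher and 1 lower, against 29.9% and 29.1%. Selenop (2.48 and 2.07) and Selenow (0.66 and 0.42), themselves selenoproteins, were higher, while Eefsec, the elongation factor for selenocysteine (-0.41 and -0.36), and at day 1 Pstk (-0.65) were lower. A further 8 genes encode oxidases that produce superoxide or hydrogen peroxide, or subunits and partners of such oxidases. Here day 1 had 2 higher and 3 lower, near the 30.0% and 28.9% of all genes, and day 3 had 5 higher and 3 lower, against 29.9% and 29.1%. Xdh (2.15 and 1.90) and at day 3 Duoxa2 (1.31) were higher, and the epithelial NADPH oxidase Nox1 (-3.77 and -1.76) with its activator Noxa1 (-1.57 and -1.49) were lower.

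**Figure D4:**
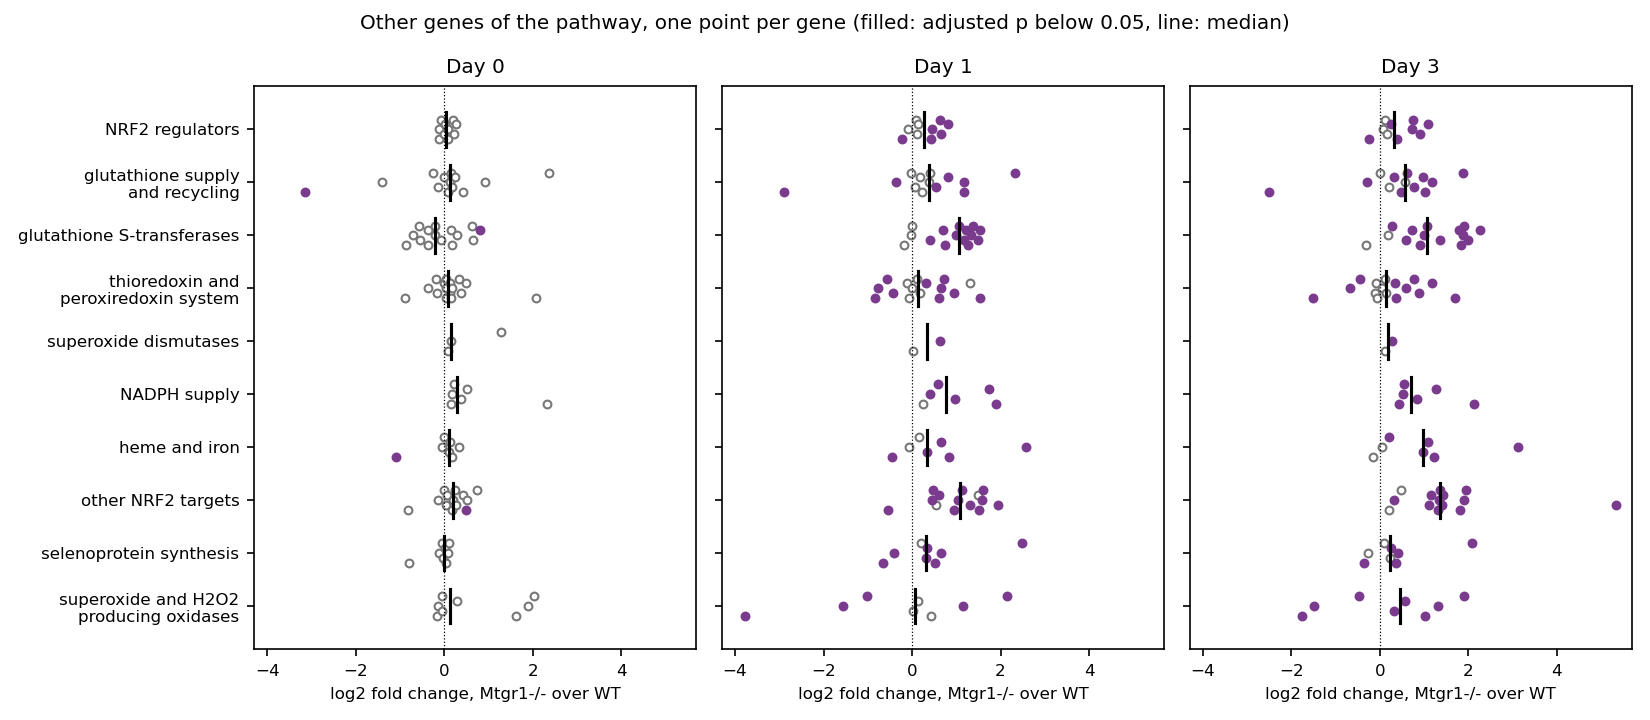
Log2 fold change of Mtgr1-/- over WT (horizontal axis) for the tested genes of 10 pathway lists at the 3 time points, with 1 point per gene, filled where the adjusted p was under 0.05 in limma, and a line at the median of each list. The glutathione S-transferases have medians of 1.06 at day 1 and 1.07 at day 3, and the list of oxidases with their partners spreads from -3.77 to 2.15 at day 1.

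Cell type markers moved with these differences. At day 1, 11 of 12 enterocyte markers were higher in the labelled Mtgr1-/- libraries and 1 lower, and their sum was 281360.0 to 371516 in WT and 556648 to 876825 in the others. At day 3, 11 of 12 were higher, and the sums were 212686 to 245567 and 418149 to 778348. All 8 Paneth cell markers, all 6 listed goblet cell markers and all 8 stem cell and proliferation markers were lower at both times. Their sums at day 3 were 101840.0 to 128305 against 1776 to 9553 for Paneth cells, 29207 to 29855 against 1713 to 4549 for goblet cells, and 115012 to 132204 against 12783 to 21436 for stem and proliferating cells. In crypts, the enterocyte sums overlapped (601302 to 737113 against 404777 to 745500.0), while the goblet sums (151108 to 173866 against 4754 to 7683), Paneth sums (135104 to 191339 against 1454 to 48808) and stem and proliferating sums (45030.4 to 56645 against 15588 to 22391) did not. Of the 8 stem and proliferation markers, only 1, Olfm4, was called in crypts (25673 to 33032 against 133 to 512), so this sum mainly reflects that gene. Lgr5, at 230 to 296 against 211 to 562, overlapped and was not called there. Of the 8 Paneth markers 0 were called in crypts, where the labelled library 2 had a sum of 48808 and the other labelled libraries 1929 and 1454. All 6 listed goblet markers were called lower there. In these bulk libraries, more cells of a type and more RNA per cell cannot be told apart, and the part of the cell types in the difference of the antioxidant genes was not tested. Epithelial markers moved with the genotype as well, with 5 of 8 higher at day 1 and 7 of 8 at day 3, and day 3 sums of 151262 to 167089 against 291263 to 308320. Of the list of blood, immune, stromal and endothelial markers, 5 were tested at day 1 and 4 at day 3, and 1, Csf1r, a macrophage receptor, was called higher at both. Csf1r was at 0 to 1.68 against 8.53 to 36.2 at day 1 (adjusted p = 0.00323, limma) and at 0 to 7.74 against 32.8 to 85.3 at day 3 (adjusted p = 0.0028, limma). Lyz2, a myeloid marker, reached 328 and 637 in the labelled library 3 and was not called. Col1a1 and Acta2, markers of stroma, were at 0 to 4.49 in all enteroid libraries. The part of these markers in the results was not tested either, apart from the counts given without the labelled library 3.

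As genes most like Nqo1 and Gpx2, those with the highest Pearson r of log2 values centred within each table were taken, over 18 libraries and 12145 genes, as a description. The libraries come from 6 mice and share the genotype groups. Nqo1 was most like Gstm1 (r = 0.927), Tinagl1 (0.906), Slc39a11 (0.902), Areg (0.899) and Gstm3 (0.894). Gpx2 was most like Mrpl21 (0.919), Hdac3 (0.889), Dbt (0.882), Gusb (0.875) and Tufm (0.871), and none of the other 9 genes of the set was among the 5 of either.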

How the data were processed

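The 10 genes, the wider lists, the tests and most alternatives were chosen with earlier results of these data known. The authors trimmed single 50 bp reads of stranded mRNA libraries (fastp 0.20.0), quantified them on GENCODE mouse release 21, GRCm38 (Salmon 1.3.0), and normalized them (DESeq2 1.26.0). In the deposited signal, gene-level counts are divided by a factor of their library, separately for every time point. The tables also held the authors' own mean, log2 fold change, standard error, Wald statistic and p-values, none of which was used. Groups and mouse numbers came from the labels.

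Tests covered genes whose mean reached 10, that is 12980 at day 0, 12587 at day 1 and 12782 at day 3, on log2(normalized count + 1) with limma 3.58.1 (trend, two-sided) in R 4.3.3. With 3 against 3 libraries, an exact permutation p cannot go below 0.1, so the moderated model supplied all p-values. For changes between time points, 1 fit held all 18 libraries and treated mice as random effects (correlation within mice -0.00481). Recovered reads were whole multiples of the step between low values (100% of values within 0.01 of a whole number). The step of WT crypt library 2 and of labelled Mtgr1-/- day 3 library 2 could not be told from 1, so edgeR 4.0.16 and DESeq2 1.42.0 ran without these 2. The limma fit within a time point was tested on simulated counts, with known changes and without any.

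The pairing by mouse number between genotypes was checked by the correlation of deviations from the group means: 0.0764, 0.274 and 0.346 for the 3 numbers at day 0, 0.116, 0.231 and 0.216 at day 1, and -0.00666, -0.00226 and -0.0156 at day 3. Only at day 1 were all over 0.1, though 0.274 and 0.346 at day 0 were larger than any at day 1. Mice of the 2 genotypes are different animals.

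By rule, the text names all 10 genes, Nfe2l2, Keap1 and Bach1, and per wider list up to 2 genes called higher and 2 called lower whose change was largest at day 1 and at day 3, except 1 gene that is not reported here. The 5 genes most like Nqo1 and Gpx2 were also taken by rule, while the 4 wider-list genes called at day 0 and the stroma markers were named after their values were seen. Alternatives dropped single libraries, set the pseudocount to 0.1 or 8, removed the filter, the trend or the equal weighting of libraries (array weights), rescaled by median ratios or by quantiles, blocked on mouse numbers, or tested recovered reads. Per-million scaling was added after the data were seen. Some marker genes had no row and were not analysed here.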

Additional observations from a re-analysis of the deposited data

Results flagged for a closer look

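The genotype difference of 8 of the 10 genes changed between time points by a limma test of the change itself, 11 changes in all on the log2 scale. From day 0 to day 1 these were Cat (1.396, adjusted p = 0.00253), Gclc (0.90, 0.0107) and Gpx2 (-1.80, 0.00807). From day 0 to day 3 they were Gclc (1.92, 0.000281), Nqo1 (1.58, 0.00565), Cat (1.35, 0.00452), Srxn1 (1.28, 0.00716), Hmox1 (1.23, 0.0328), Gclm (0.69, 0.0439), Txnrd1 (0.61, 0.0124) and Gpx2 (-1.29, 0.0476). Of all genes tested, 20.3% became more positive and 21.1% more negative from day 0 to day 1, and 16.5% and 15.1% from day 0 to day 3. The 2 and 1 of 10 genes from day 0 to day 1 were thus not above the shares of all genes. In each of the 11 changes the 3 labelled mice lay on 1 side of all 3 WT mice. As the 11 were selected by their calls, this separation adds no support. The crypt value of WT mouse 3 entered both changes of Gpx2, which were -1.19 and -0.68 without it. With the mouse as a block, the 3 changes from day 0 to day 1 remained called, but of the 8 from day 0 to day 3 only Gclc did (adjusted p = 0.0151, limma), and the other 7 lay between 0.0652 and 0.134.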

How the results depend on the processing

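The enteroid calls held best. At day 3 the 9 genes were higher in each of 17 alternatives, and quantile normalization and per-million scaling added 1 lower gene, Gpx2. At day 1 the number higher ranged from 5 to 9, and Gpx2 was the 1 lower gene in all 17. Quantile normalization turned Nqo1 (-0.030) and Txnrd1 (-0.019) at day 1 and Txnrd1 at day 0 (-0.021), and per-million scaling turned Nqo1 at day 1 (-0.062), none of them past the threshold. Per-million scaling left 22 wider-list genes lower at day 1. The causes were not tested.

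Crypt calls were few and moved with most settings. Of the 10 genes, quantile normalization and DESeq2 called 2 higher, edgeR 0, and array weights 3 higher and 1 lower, with Txnrd1 at -0.065 and Srxn1 at -0.0032. Of the wider-list genes, 0.1 as pseudocount left 1 higher and 0 lower, 8 as pseudocount and no filter 1 lower, quantile normalization 1 higher, no trend 0 higher and 1 lower, array weights 13 and 7, edgeR 0 and 0, and DESeq2 5 and 5. Leaving out single crypt libraries gave 0 to 3 of the 10 genes higher (3 without the labelled Mtgr1-/- library 2, and 0 without any other) and 0 to 1 lower, 0 to 2 wider-list genes higher and 0 to 1 lower, and log2 values of -0.12 to 0.080 for Gclc, -0.10 to 0.12 for Txnrd1, -0.056 to 0.44 for Srxn1 and -0.44 to 0.0051 for Cat. At day 3, 5 to 11 wider-list genes were lower, namely 5 without WT library 2. The estimation of array weights stopped before convergence in 1 fit. With 1 library out, the spread was pooled over those left.

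With mouse numbers as a block, 0 of the 10 genes and 0 wider-list genes were higher in crypts, and Hmox1 was the call gained at day 1. For the changes between time points, pairing within mice left 1 gene more positive and 0 more negative from day 0 to day 3, and called 1 (Hmox1, adjusted p = 0.0495) from day 1 to day 3. Single libraries left out there gave 2 to 5 genes more positive from day 0 to day 1 (5 without WT crypt library 3, 4 without the labelled Mtgr1-/- day 1 library 2) and 0 to 1 more negative from day 0 to day 3. That negative change, of Gpx2, was called in 8 of 23 alternatives, and those of Gclm and Hmox1 in 11 and 14. Estimates near 0 changed sign: from day 0 to day 1 Prdx1 was -0.073 to 0.15 and Hmox1 -0.19 to 0.33, and from day 1 to day 3 Gpx1 was -0.066 to 0.21, Cat -0.28 to 0.087 and Prdx1 -0.026 to 0.19. With 3 mice per genotype, differences in crypts smaller than their spread could not be detected.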
